A study of Mus musculus with 12 samples.

Results

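The homeostatic and lymphoid follicle chemokines are described here in mouse colon as a set of 10 genes, 7 ligands and 3 receptors, matched by symbol in the 40050 genes of the deposited expression table. The ligands were Cxcl13, Ccl19, Ccl21a, Ccl20, Ccl28, Ccl25 and Cxcl12. The receptors were Cxcr5, Ccr7 and Ccr6. Each of the 10 was found once, and each passed the minimum level for testing, a mean normalized count of 10, which 23263 genes passed in all.

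Chemokines are small secreted proteins that steer cells carrying the matching G protein-coupled receptor. The homeostatic ones are made without inflammation and set where lymphocytes settle. In lymphoid follicles of the gut wall, stromal cells make CXCL13, which draws CXCR5-bearing B cells, while CCL19 and CCL21 bring in T cells and dendritic cells through CCR7. Epithelium over follicles makes CCL20, the ligand of CCR6. CCL28, made by colon epithelium, attracts IgA-secreting cells through CCR10. CCL25 does so in the small intestine through CCR9. CXCL12 is a stromal ligand of CXCR4.

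Total RNA of whole colon was sequenced in 12 libraries, 3 in each of 4 groups. KO_DSS libraries came from Glul∆Lyz2 mice given DSS, dextran sulfate sodium, a polymer in the drinking water that damages the gut epithelium and sets off colitis. WT_DSS libraries came from their Glul f/f littermates given DSS, KO_H2O from Glul∆Lyz2 mice given water, and WT_H2O from f/f littermates given water. Glul encodes glutamine synthetase and is deleted here in cells that have used the Lyz2 promoter, that is in myeloid cells, so the WT animals carry the floxed allele too. Numbers after a group are those of the sample titles, which are 1, 2 and 4 in WT_DSS. Whether a library stands for a separate animal is not in the labels, and p-values therefore reflect only how these samples vary, which can be technical variation.

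Libraries held 14661803 to 31036944 reads in KO_DSS, 30385710 to 30539901 in WT_DSS, 32038973 to 41172418 in KO_H2O and 27088540 to 36715740 in WT_H2O. Glul itself averaged 1.17 ± 0.56 lower on the log2 scale in KO_DSS than in WT_DSS, with no overlap between the libraries, and 0.81 ± 0.56 lower in KO_H2O than in WT_H2O, with overlap (SE), and passed in neither (adjusted p = 0.952 on DSS and 1 on water). Lyz2 averaged a log2 difference of 0.41 ± 0.63 on DSS and 0.0019 ± 0.63 on water between KO and WT. Epithelial markers were read in every library, as the colon label implies. KO_H2O 2 stood apart in B cell genes, with the highest level of the 12 libraries for 14 of 16 B cell markers. It was highest for 2 of 12 T cell markers and for 5 of 7 lymphatic endothelial markers. KO_DSS 2 and 3 had the lowest summed B cell markers. In whole tissue, fewer cells of a type and less RNA per cell cannot be told apart.

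Ranked by level per gene length in FPKM, a read count scaled by gene length and library depth, Ccl28 came first with a mean of 29.2 FPKM over the 12 libraries. Ccl21a followed with 12.4, Cxcl13 with 6.94, Cxcl12 with 5.07, Ccl25 with 3.66 and Ccl20 with 1.45 FPKM. The receptors and Ccl19 lay under 1, at 0.452 FPKM for Cxcr5, 0.440 for Ccl19, 0.370 for Ccr7 and 0.318 for Ccr6. Ligands other than Ccl19 thus had higher mean levels than the receptors. All neighbours in this order overlapped between libraries. Within groups, Ccl28 lay above every other gene of the set in all 3 KO_DSS libraries, at 22.9 to 49.0 FPKM, and in all 3 WT_DSS libraries, at 31.2 to 53.7 FPKM. Ccl28 was the highest of the 10 genes in 11 of 12 libraries, water libraries included, and Ccl21a was in KO_H2O 2. By group mean it was not first in KO_H2O, where Ccl21a averaged 21.7 ± 24.4 FPKM and Ccl28 19.4 ± 19.2 FPKM (SD, n = 3 each), and both means were set by KO_H2O 2. The range across libraries differed widely between genes. Normalized counts of Ccl25 spanned 2.09-fold from the lowest to the highest library, those of Ccl28 6.12-fold, those of Ccl20 20.8-fold, those of Cxcl13 56.5-fold and those of Ccl21a 64.7-fold. Ccl19 and the 3 receptors had libraries with no read, where a count of 0 allows up to 3 reads.

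**Figure D1:**
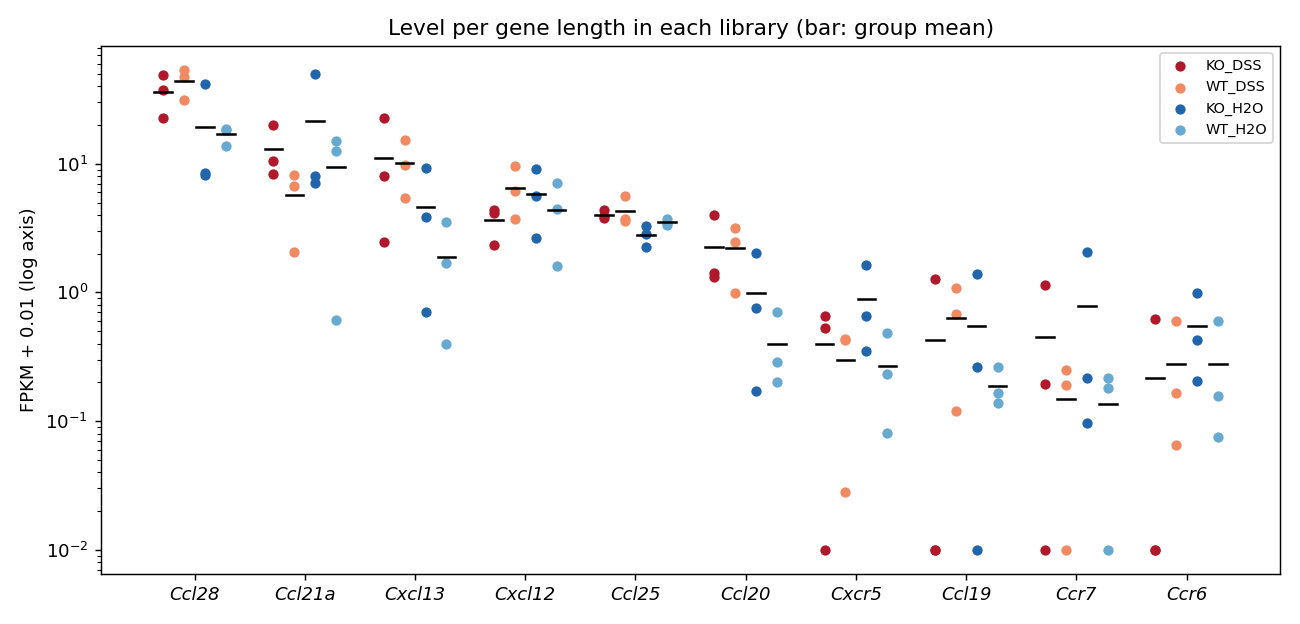
Levels per gene length of the 10 genes, in FPKM plus 0.01 on a log axis, ordered by the mean over 12 libraries. Points are libraries, coloured by group, and bars are group means. Ccl28 leads in 11 of the 12 libraries, and the receptors and Ccl19 sit below 3 FPKM in each library.

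DSS was compared with water in each genotype and averaged over both. Averaged over genotypes, Ccl28 and Ccl20 rose and no gene of the set fell, so that 2 of 10 passed (limma on log2 values, adjusted p under 0.05). Among all genes tested, 13.0% passed as higher and 14.6% as lower in that comparison, so the share of the set is close to the background. In KO alone, where 5.0% of all genes passed as higher and 5.71% as lower, 0 of the 10 passed. An unadjusted p under 0.05 was found for 3 of the 10, beside 30% of all genes. In WT alone, where 2.16% passed as higher and 2.58% as lower, 0 of the 10 passed. There too 3 had an unadjusted p under 0.05, beside 24.8% of all genes. The median log2 change of the set was -0.46 in KO, against -0.10 over all genes tested, and 0.48 in WT, against -0.02 over all genes. All 3 KO_DSS libraries lay above all 3 KO_H2O libraries for 1 gene, Ccl25, where 14.7% of all genes did so and 16.7% lay wholly below. All 3 WT_DSS libraries lay above all 3 WT_H2O libraries for 3 genes, Cxcl13, Ccl20 and Ccl28, where 16.9% of all genes did so and 17.2% lay wholly below. No gene of the set lay wholly below in either genotype.

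**Figure D2:**
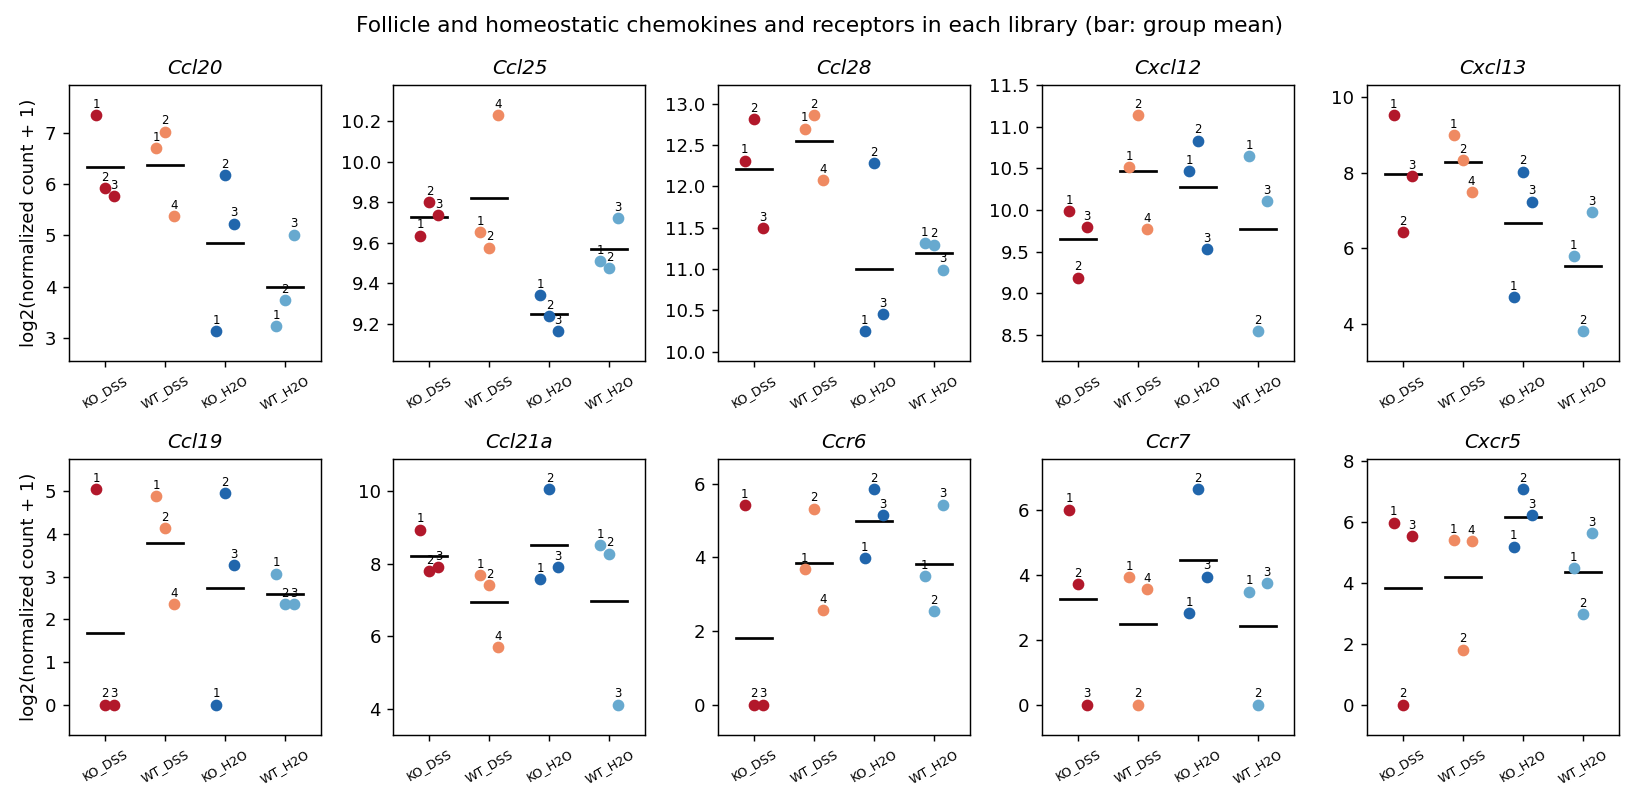
log2(normalized count + 1) of each gene in each library, with library numbers beside the points and group means as bars. Ccl20, Ccl28 and Cxcl13 sit higher in WT_DSS than in WT_H2O with no overlap, and KO_H2O 2 is the highest of the 12 libraries for Ccl21a, Ccr6, Ccr7 and Cxcr5.

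Ccl28 (ENSMUSG00000074715, chromosome 13, 119623819 to 119654359, plus strand, GRCm38) had normalized counts of 5092, 7215 and 2884 in KO_DSS 1, 2 and 3, against 1218, 4974 and 1404 in KO_H2O 1, 2 and 3. WT libraries gave 6660, 7454 and 4321 in WT_DSS 1, 2 and 4, against 2537, 2514 and 2035 in WT_H2O 1, 2 and 3. KO_H2O 2 alone among the water libraries reached the range of the DSS libraries. It was also nearer to the DSS libraries in 2 measures of library makeup. Reads of Gm26917 and Gm42418, transcripts that overlap ribosomal RNA sequence, made up 1.26 to 2.86% in the 6 DSS libraries, against 2.33% in KO_H2O 2 and 3.68 to 13.1% in the other 5 water libraries. The top 10 genes held 10.4 to 14.1% of reads in the DSS libraries, against 10.5% in KO_H2O 2 and 16.5 to 31.6% in the other 5. These measures thus moved with treatment, and their part in the DSS changes of the set was not tested. Averaged over genotypes Ccl28 was 2.43-fold higher on DSS, a log2 change of 1.28 ± 0.34 (SE) with an adjusted p of 0.0176. An exact permutation test within genotypes gave p = 0.02, where 0.005 is the smallest possible. The change was alike in size in both genotypes, at 1.21 ± 0.48 in KO and 1.35 ± 0.48 in WT, and neither passed alone (adjusted p = 0.119 and 0.116). Ccl28 kept its averaged call without each of the 12 libraries in turn. Without KO_H2O 2 it also passed in KO, at 1.85 with an adjusted p of 0.0105, and in WT, at an adjusted p of 0.0366.

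Ccl20 (ENSMUSG00000026166, chromosome 1, 83116766 to 83119167, plus strand) had normalized counts of 162, 59.8 and 53.2 in KO_DSS 1, 2 and 3, against 7.80, 71.2 and 36.5 in KO_H2O 1, 2 and 3. In WT the counts were 103, 130 and 40.4 in WT_DSS 1, 2 and 4, against 8.33, 12.4 and 31.3 in WT_H2O 1, 2 and 3. WT libraries did not overlap between treatments, while KO_H2O 2 lay above 2 of the 3 KO_DSS libraries. Averaged over genotypes Ccl20 was 3.83-fold higher on DSS, a log2 change of 1.94 ± 0.57 (SE) with an adjusted p of 0.0265 and an exact permutation p of 0.02. It was 1.5 ± 0.80 in KO and 2.38 ± 0.80 in WT (adjusted p = 0.231 and 0.1). In KO it ranged from 0.64 without KO_H2O 1 to 2.16 without KO_H2O 2. The lowest library held 9 reads of Ccl20, so the precision is low. The averaged call was lost without KO_DSS 1 (adjusted p = 0.0571), WT_DSS 1 (0.0580), WT_DSS 2 (0.0569), KO_H2O 1 (0.0575), WT_H2O 1 (0.0640) or WT_H2O 2 (0.0559).

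Cxcl13 (ENSMUSG00000023078, chromosome 5, 95956951 to 95961068, plus strand) had the largest averaged log2 change of the set, and missed the threshold. Its normalized counts were 739, 85.6 and 239 in KO_DSS 1, 2 and 3, against 25.1, 261 and 150 in KO_H2O 1, 2 and 3. They were 513, 321 and 179 in WT_DSS 1, 2 and 4, against 54.6, 13.1 and 124 in WT_H2O 1, 2 and 3. All WT_DSS libraries were above all WT_H2O libraries, and the KO groups overlapped through KO_DSS 2 and KO_H2O 2 and 3. The averaged log2 change was 2.03 ± 0.71 (SE), with an adjusted p of 0.0523 and an exact permutation p of 0.045. The log2 change was 1.30 ± 1.0 in KO (adjusted p = 0.406) and 2.75 ± 1.0 in WT (adjusted p = 0.121). Single libraries moved the change in KO from 0.32 without KO_H2O 1 to 2.06 without KO_DSS 2. Its side of the threshold turned on single libraries and settings: it passed without KO_DSS 2 (adjusted p = 0.0338), KO_H2O 2 (0.0321) or WT_H2O 3 (0.0357), and with sample weights (0.0320).

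Sequences are shown for the 3 genes with the largest averaged increases on DSS, since they let the start regions of an inducible epithelial, a constitutive epithelial and a stromal chemokine be read side by side. Each line gives the 250 bases before the RefSeq start, 5′ to 3′ on the plus strand, in GRCm38.p6, at chr1:83116516-83116765 for Ccl20, chr5:95956689-95956938 for Cxcl13 and chr13:119623569-119623818 for Ccl28. Capitals mark matches, on either strand, to the classical kappaB consensus (Ccl20) or to the RelB and p52 kappaB consensus (Cxcl13), which are bound by NF-kappaB proteins.
Ccl20: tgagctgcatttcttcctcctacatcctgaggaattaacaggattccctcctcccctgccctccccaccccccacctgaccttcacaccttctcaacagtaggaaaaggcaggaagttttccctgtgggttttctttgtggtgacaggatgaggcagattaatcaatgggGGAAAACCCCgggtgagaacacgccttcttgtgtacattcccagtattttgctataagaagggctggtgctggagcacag
Cxcl13: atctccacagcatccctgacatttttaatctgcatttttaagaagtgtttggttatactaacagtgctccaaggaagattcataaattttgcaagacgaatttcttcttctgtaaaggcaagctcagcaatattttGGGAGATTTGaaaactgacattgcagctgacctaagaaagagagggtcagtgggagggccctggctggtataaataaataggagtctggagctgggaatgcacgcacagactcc
Ccl28: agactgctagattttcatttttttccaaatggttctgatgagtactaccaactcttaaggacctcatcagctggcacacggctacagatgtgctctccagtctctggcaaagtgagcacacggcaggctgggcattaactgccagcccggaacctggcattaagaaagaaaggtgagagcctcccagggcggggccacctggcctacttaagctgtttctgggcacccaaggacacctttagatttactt
The Ccl20 match starts at base -80, counted back from the base before the start as -1, and the Cxcl13 match at base -114. The classical consensus was found in 5.0% of 32851, or 1643, of the RefSeq promoter windows of this length and the RelB and p52 consensus in 0.317%. The Ccl28 window held neither. Of the 10 genes 8 had a window in the table, and besides Ccl20 only the second start of Ccr6 held the classical consensus, also at base -80. Whether the promoters shown were used to define a consensus is not given here, so these shares do not test the matches. A match is a run of letters and not a measured binding site.

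Ccl25 (ENSMUSG00000023235, chromosome 8, 4325210 to 4360020, plus strand) varied least between libraries. It had normalized counts of 794, 891 and 853 in KO_DSS 1, 2 and 3, against 649, 603 and 573 in KO_H2O 1, 2 and 3, with no overlap. WT libraries overlapped, with 803, 762 and 1200 in WT_DSS 1, 2 and 4, against 727, 711 and 842 in WT_H2O 1, 2 and 3. The averaged log2 change was 0.36 ± 0.15 (adjusted p = 0.0846, exact permutation p = 0.015). It was 0.48 ± 0.21 in KO and 0.25 ± 0.21 in WT. Cxcl12 (ENSMUSG00000061353, chromosome 6, 117168535 to 117181367, plus strand) had 1017, 583 and 887 in KO_DSS 1, 2 and 3, against 1418, 1826 and 738 in KO_H2O 1, 2 and 3. Littermates had 1462, 2256 and 871 in WT_DSS 1, 2 and 4, against 1606, 374 and 1106 in WT_H2O 1, 2 and 3. Both pairs of groups overlapped. Its averaged log2 change was 0.04 ± 0.37 (adjusted p = 0.946). The signs within genotypes differed, at -0.62 ± 0.53 in KO and 0.70 ± 0.53 in WT, with an interaction of -1.32 ± 0.75 that did not pass (adjusted p = 1.0). Without KO_H2O 2 the change in KO was -0.34, and without WT_H2O 2 the change in WT was 0.093 and the interaction -0.71.

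The CCR7 ligands did not pass in any DSS comparison. Ccl21a (ENSMUSG00000094686, chromosome 4, 42772860 to 42773993, minus strand) had normalized counts of 490, 221 and 238 in KO_DSS 1, 2 and 3, against 190, 1066 and 238 in KO_H2O 1, 2 and 3. For WT mice the values were 206, 169 and 51.1 in WT_DSS 1, 2 and 4, against 363, 310 and 16.5 in WT_H2O 1, 2 and 3. The lowest and the highest library were both on water. Its log2 changes on DSS were -0.30 ± 1.05 in KO and -0.04 ± 1.05 in WT. Near-identical copies of this gene, Ccl21b, Gm13304 and Gm21541, had values close to each other in each library, such as 95.9, 103 and 95.9 normalized counts in KO_DSS 1, so reads may be shared among them and the level of Ccl21a is uncertain. Ccl19 (ENSMUSG00000071005, chromosome 4, 42754525 to 42756577, minus strand) had 32.3, 0 and 0 in KO_DSS 1, 2 and 3, against 0, 30.1 and 8.64 in KO_H2O 1, 2 and 3. The WT values were 28.6, 16.6 and 4.12 in WT_DSS 1, 2 and 4, against 7.40, 4.13 and 4.12 in WT_H2O 1, 2 and 3. Each of the KO groups held at least 1 library without a read of Ccl19, and no WT library did. Its averaged log2 change was 0.07 ± 1.07.

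No receptor of the set passed as higher on DSS. Ccr6 (ENSMUSG00000040899, chromosome 17, 8236043 to 8257141, plus strand) had normalized counts of 41.9, 0 and 0 in KO_DSS 1, 2 and 3, against 14.7, 57.0 and 34.6 in KO_H2O 1, 2 and 3. WT colons gave 11.8, 39.0 and 4.94 in WT_DSS 1, 2 and 4, against 10.2, 4.82 and 42.0 in WT_H2O 1, 2 and 3. KO_DSS 2 and 3 were the only libraries without a read of it. The log2 change was -3.19 ± 1.39 in KO (adjusted p = 0.147) and 0.04 ± 1.39 in WT (adjusted p = 0.990), and the interaction of -3.23 ± 1.96 did not pass (adjusted p = 1.0). The 2 libraries at 0 make the size in KO depend on the pseudocount, and it was -1.79 with a pseudocount of 5. Without KO_DSS 1, the remaining KO_DSS libraries being both at 0, Ccr6 passed as lower in KO (log2 change -5.0, adjusted p = 0.0211) and averaged (adjusted p = 0.0273).

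Cxcr5 (ENSMUSG00000047880, chromosome 9, 44511787 to 44561877, minus strand) had 62.1, 0 and 45.4 normalized counts in KO_DSS 1, 2 and 3, against 35.6, 135 and 73.9 in KO_H2O 1, 2 and 3. Among WT libraries the values were 41.2, 2.49 and 40.4 in WT_DSS 1, 2 and 4, against 21.3, 6.88 and 48.6 in WT_H2O 1, 2 and 3. Its averaged log2 change was -1.25 ± 1.04 (adjusted p = 0.393), and -0.29 without KO_DSS 2, -0.65 without WT_DSS 2 and -1.79 without KO_DSS 1. Ccr7 (ENSMUSG00000037944, chromosome 11, 99144196 to 99155077, minus strand) had 63.7, 12.2 and 0 in KO_DSS 1, 2 and 3, against 6.07, 99.7 and 14.4 in KO_H2O 1, 2 and 3. In the WT groups it stood at 14.3, 0 and 10.7 in WT_DSS 1, 2 and 4, against 10.2, 0 and 12.4 in WT_H2O 1, 2 and 3. Of its 12 values, the 2 above 60 were in KO_DSS 1 and KO_H2O 2. The averaged log2 change of Ccr7 was -0.57 ± 1.19 (adjusted p = 0.750).

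**Figure D3:**
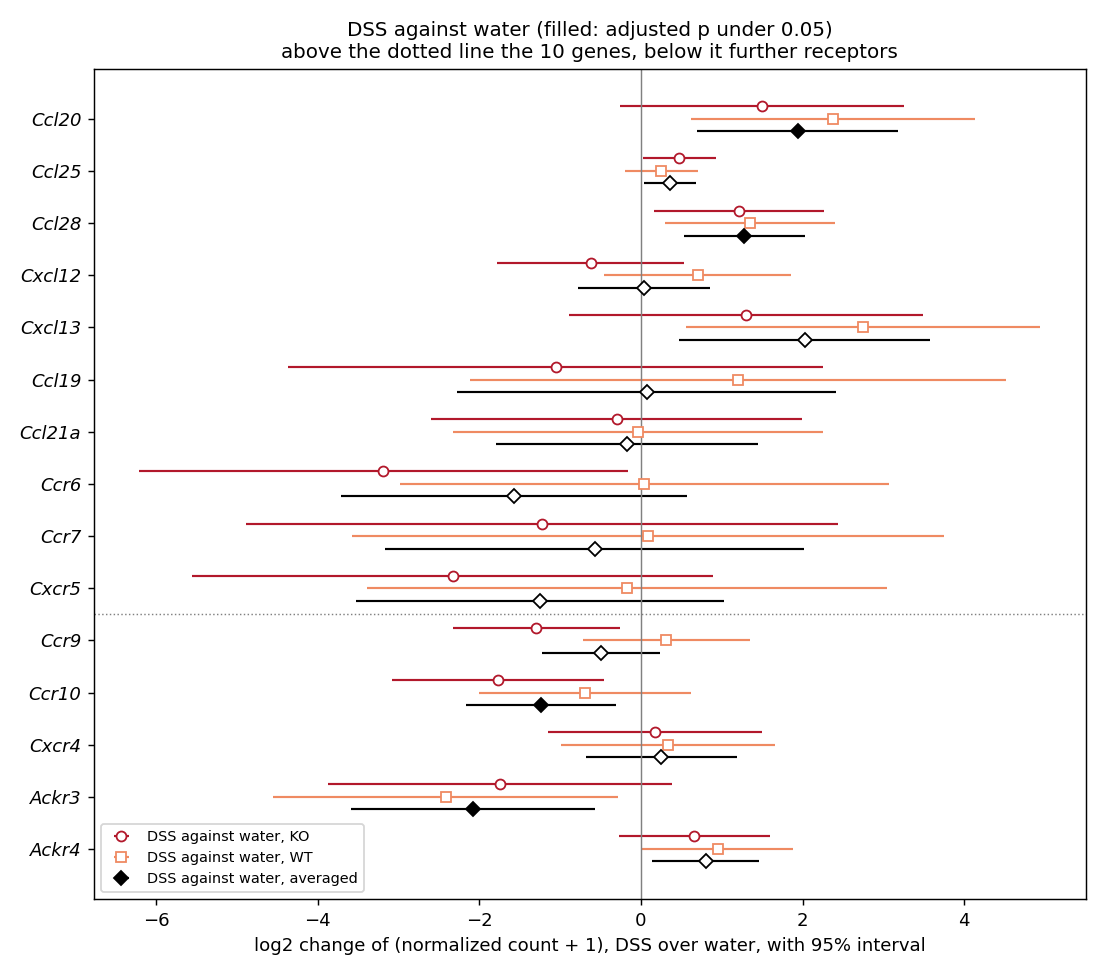
log2 changes on DSS over water with 95% intervals, in KO, in WT and averaged over genotypes, for the 10 genes and for 5 further receptors. Filled symbols passed at an adjusted p under 0.05, which Ccl20 and Ccl28 did as higher and Ccr10 and Ackr3 as lower, each in the averaged comparison.

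Knockout and littermates were compared on each treatment. No gene of the set passed, and 0% of all genes did, on DSS, on water, averaged over treatments or in the interaction. At an unadjusted p under 0.05 there were 0 of the 10 in each, against 1215, 757, 1131 and 640 genes in all. On DSS, Ccl21a was higher in all 3 KO_DSS libraries than in all 3 WT_DSS libraries, a log2 difference of 1.28 ± 1.05 (adjusted p = 0.969, exact permutation p = 0.1, the smallest for 3 against 3). It was the only gene of the set with no overlap there, where 2.99% of all genes were wholly higher and 4.08% wholly lower. Its near-identical copies Ccl21b, Gm13304 and Gm21541, which may share reads with it, overlapped between these groups, at log2 differences of 0.65, 0.72 and 0.63. On water, only Ccl25 did not overlap and was lower in KO_H2O, by a log2 difference of -0.32 ± 0.21 (adjusted p = 1), where 5.16% of all genes were wholly higher and 4.29% wholly lower. On water 8 of 10 log2 differences were positive, with the highest for Ccr7 at 2.07 ± 1.68. Single libraries moved these differences. That of Ccr7 was 0.98 without KO_H2O 2 and 0.86 without WT_H2O 2. That of Ccl21a was 1.54 ± 1.05, 0.77 without KO_H2O 2 and 0.12 without WT_H2O 3. On DSS the lowest log2 difference was that of Ccl19, at -2.11 ± 1.52. Averaged over treatments, Ccl21a had the smallest unadjusted p, with a log2 difference of 1.41 ± 0.74 (adjusted p = 0.953). The interaction was negative for 9 of 10 genes and 0.22 ± 0.29 for Ccl25. The comparisons of DSS with water and of KO with WT share libraries, so these signs are not independent of those above.

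Ligands and receptors were set against each other across the 12 libraries, after removing the group means, so that only differences between libraries of 1 group count. The 7 pairs were tested by exact permutation within groups. Ccl20 and Ccr6 deviated together, with r = 0.760 (exact permutation p = 0.00309, adjusted over the 7 pairs p = 0.0216) and rho = 0.781 (exact permutation p = 0.00617, adjusted p = 0.0432). Without the 2 libraries farthest from the median of Ccl20, KO_H2O 1 and 2, r was 0.856. That check keeps KO_DSS 2 and 3, which had no read of Ccr6 and the fewest reads of the 12 libraries. The value of r without them was not computed. Cxcl13 and Cxcr5 gave r = 0.660 (exact permutation p = 0.0332, adjusted p = 0.116) and rho = 0.643 (p = 0.0448, adjusted p = 0.157), with r = 0.671 without the 2 farthest libraries. Ccl28 and its receptor Ccr10 were the only pair with a negative sign, with r = -0.695 (exact permutation p = 0.0571, adjusted p = 0.133) and rho = -0.650 (p = 0.0818, adjusted p = 0.165), and -0.697 without the 2 farthest. The remaining 4 pairs, Ccl19 and Ccl21a with Ccr7, Ccl25 with Ccr9 and Cxcl12 with Cxcr4, had r between 0.0483 and 0.598 and did not pass (exact permutation p from 0.130 to 0.875). The r of Ccl19 with Ccr7 was 0.185 without KO_DSS 1 and KO_H2O 1 and so rests on those libraries.

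Tested genes were ranked by how like their deviations were to those of Cxcl13 and Ccl20 over the 12 libraries. Gm, Rik, clone and mitochondrial names and immunoglobulin and T cell receptor segments were left out of this ranking. Those most like Cxcl13 were Cd22 (r = 0.955), a B cell surface receptor, Ttn (0.928) and Cd69 (0.927), an early activation marker of lymphocytes. Next came Ltb (0.921), a subunit of the lymphotoxin that induces Cxcl13 in stroma, and Samsn1 (0.914). The likeness is one within groups. Mean normalized counts of Ltb, unlike those of Cxcl13, were lower on DSS than on water, at 27.0 against 76.6 in KO and 21.9 against 26.2 in WT. Those most like Ccl20 were H2-DMb2 (r = 0.938), of antigen loading onto MHC class II, Cdc5l (0.937), Jak1 (0.935), Gab3 (0.927) and Rnu3a (0.919). These are the top of a ranking over the genes left of the 23263 tested and are given as a description, with no test.

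B cell markers are given beside these genes. The summed normalized counts of 16 B cell markers were 2382, 221 and 224 in KO_DSS 1, 2 and 3, 2994, 1181 and 1037 in WT_DSS 1, 2 and 4, 453, 4893 and 2634 in KO_H2O 1, 2 and 3, and 528, 387 and 1286 in WT_H2O 1, 2 and 3. All 16 were tested and 0 passed in any comparison, and their median log2 change on DSS was -2.42 in KO and 1.69 in WT. KO_DSS 2 and 3, the lowest in these markers and without a read of Ccr6 and Ccl19, still held 85.6 and 239 normalized counts of Cxcl13, within the range of the 6 water libraries, 13.1 to 261. Per 1000 counts of the summed markers, Cxcl13 stood at 310, 387 and 1070 in KO_DSS 1, 2 and 3 and 171, 272 and 172 in WT_DSS 1, 2 and 4, against 55.6, 53.4 and 56.9 in KO_H2O 1, 2 and 3 and 103, 33.8 and 96.1 in WT_H2O 1, 2 and 3. On this ratio, chosen after its values were seen, Cxcl13 and Ccl20 were the only 2 of the 10 genes with all 6 DSS libraries above all 6 water libraries, where 0.331% of all genes did so and 0.0645% lay wholly below. The separation depends on the list: without Spib and Pou2af1, which M cells and plasma cells also use, Cxcl13 stood at 185 or more on DSS and at up to 199 on water, and 0 of the 10 genes were apart. The part of B cell content in the values of the 10 genes was not tested.

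**Figure D4:**
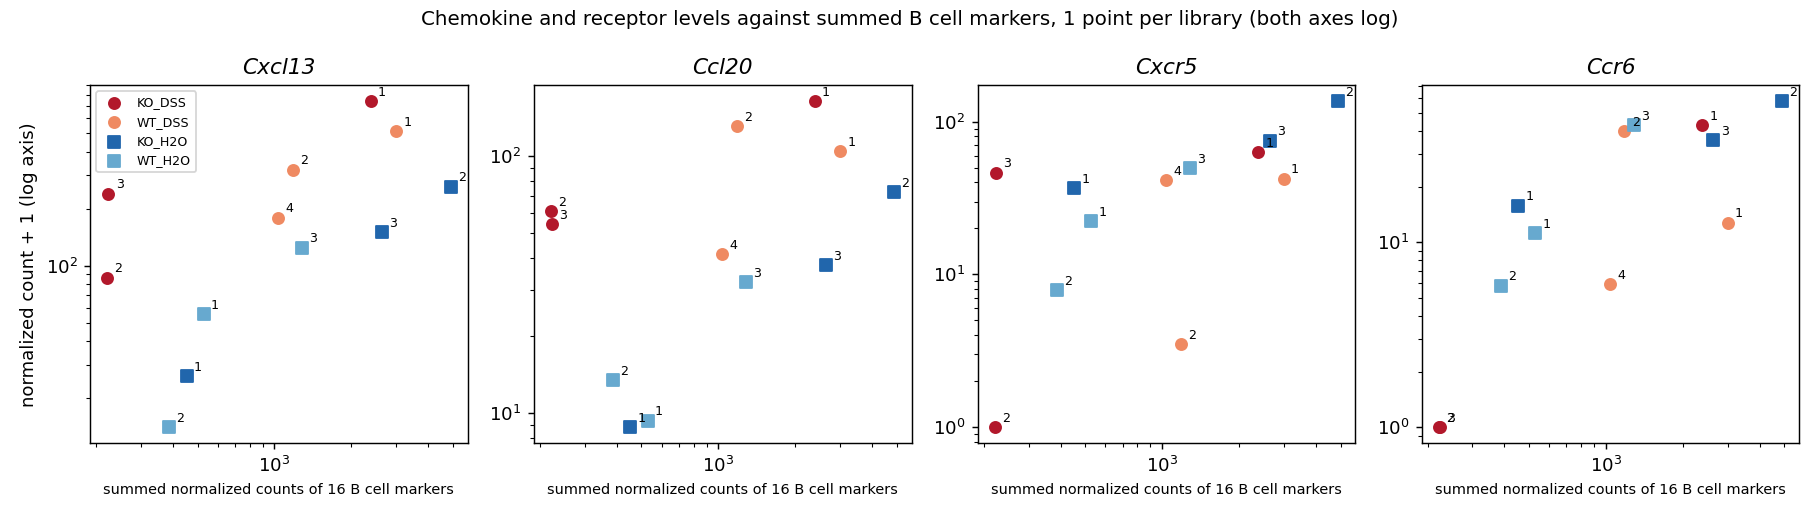
Normalized counts plus 1 of Cxcl13, Ccl20, Cxcr5 and Ccr6 against the summed normalized counts of 16 B cell markers, 1 point per library, both axes log, circles for DSS and squares for water. Where DSS and water libraries have a like B cell marker sum, those on DSS lie above for Cxcl13, a reading made after its values were seen. KO_DSS 2 and 3 sit at the left edge, below the sum of every water library, with no read of Ccr6. Without Spib and Pou2af1 in the sum, the ratios of Cxcl13 to it overlap between DSS and water.

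Further receptors of these ligands were followed on DSS. Ackr3, an atypical receptor that takes up CXCL12, had normalized counts of 144, 31.3 and 61.0 in KO_DSS 1, 2 and 3, against 152, 459 and 155 in KO_H2O 1, 2 and 3. WT mice had 74.9, 99.6 and 4.12 in WT_DSS 1, 2 and 4, against 278, 141 and 149 in WT_H2O 1, 2 and 3. All DSS libraries lay below the water libraries of their genotype. Ackr3 fell averaged over genotypes, with a log2 change of -2.08 ± 0.69 (adjusted p = 0.0426, exact permutation p = 0.005, the smallest possible). The call was lost without KO_DSS 2 (adjusted p = 0.0933), KO_DSS 3, any 1 KO_H2O library or any 1 WT_H2O library, and kept without the other 4. It was also lost with no filter (adjusted p = 0.0603) and with a replicate block (0.0598). Ccr10 fell as well, by a log2 change of -1.23 ± 0.43 (adjusted p = 0.0494), and this call was kept only without KO_DSS 3, WT_DSS 2 or KO_H2O 2, with an adjusted p of up to 0.113 without another library. Ccr10 was lost as well with no filter (0.0747), the FPKM table (0.0509), upper-quartile scaling (0.0566) and a replicate block (0.114). Ccr10 lies wholly over Cntnap1 on the other strand, and its reads cannot be told apart from that gene's if strand was not used. Ackr4, which scavenges CCL19, CCL21, CCL20 and CCL25, had an averaged log2 change of 0.80 ± 0.30 (adjusted p = 0.0679). Ccr9 and Cxcr4 had averaged log2 changes of -0.49 ± 0.33 and 0.25 ± 0.43, and neither passed. Ccr3, a further CCL28 receptor, had 3 reads in all, in KO_H2O 2.

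Of the lymphotoxin pathway, which switches on follicle chemokines in stroma, 15 of 17 genes were tested. Averaged over genotypes 4 rose and 5 fell, where 13.0% of all genes passed as higher and 14.6% as lower. Tnf rose by a log2 change of 2.52 ± 0.35 (adjusted p = 0.00111) and, less far, the RANK receptor gene Tnfrsf11a by 0.63 ± 0.16, the inhibitor of apoptosis Birc3 by 0.91 ± 0.27 and the TNF receptor gene Tnfrsf1a by 0.49 ± 0.17. The 5 that fell were the kinase gene Map3k14 at -0.70 ± 0.20, Nfkb2 at -0.62 ± 0.15 and Relb at -0.62 ± 0.20, with the adaptors Traf2 at -0.70 ± 0.16 and Traf3 at -0.83 ± 0.24. The median log2 change of this list was -0.31. In KO alone Tnf and Tnfrsf11a passed, and in WT alone Tnf did. The call in WT was lost with a replicate block (adjusted p = 0.097), with a fit on read counts (0.0522) and with only the 2 groups (0.0591). In KO the call of Tnfrsf11a was kept in 4 of 9 alternative settings and that of Tnf in all 9.

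Of 14 tested genes for homing partners of follicles, 5 rose and 2 fell averaged over genotypes, beside the same 13.0% higher and 14.6% lower over all genes. Vcam1, an adhesion molecule of stroma and endothelium, rose by a log2 change of 1.77 ± 0.36 (adjusted p = 0.00523), and the adhesion genes Icam1, Itgal and Itga4 were among the others that rose. Hsd3b7, of the route that makes and removes the oxysterol ligands of Gpr183, fell by -1.42 ± 0.22 (adjusted p = 0.00145), and S1pr2, a sphingosine phosphate receptor of germinal centre B cells, by -1.41 ± 0.26 (adjusted p = 0.00317). Hsd3b7 and S1pr2 also passed in each genotype alone, and Vcam1 in KO. With a replicate block the calls of Hsd3b7 (adjusted p = 0.116) and S1pr2 (0.11) in WT, and of S1pr2 (0.0622) and Vcam1 (0.0848) in KO, were lost. Other settings lost some of them too. Of 9 alternative settings besides the omission of libraries, S1pr2 kept its call in 4 in WT and in 5 in KO. Vcam1 kept it in 4 in KO, and Hsd3b7 in 7 in WT and in 8 in KO. Of 12 tested genes of lymphoid organ formation, Il7, the lymphocyte survival cytokine, rose by 1.17 ± 0.27 and Kit fell by -1.35 ± 0.33. The median log2 changes were 0.41 for homing partners and -0.11 for organ formation, against -0.07 over all genes.

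Marker lists of other cells of the colon are given likewise. In KO, where 5.0% of all genes passed as higher and 5.71% as lower, 4 of 4 tested neutrophil markers rose on DSS, S100a9, Csf3r, Ly6g and S100a8. The list had summed counts of 1227 to 8494 in KO_DSS and 231 to 2949 in WT_DSS, against 19.1 to 384 in KO_H2O and 9.89 to 93.4 in WT_H2O. Ly6g made up most of these sums in the DSS libraries, with 7874 of the 8494 in KO_DSS 1 and 2835 of the 2949 in WT_DSS 2. S100a9 had 162, 9.51 and 121 normalized counts in KO_DSS 1, 2 and 3, and 0, 0 and 3.29 in WT_DSS 1, 2 and 4, and no read in the water libraries. S100a9 and S100a8 reached the minimum level for testing only through KO_DSS, so that filter partly set their rise in KO. Both calls in KO were lost with voom, a limma fit on read counts (adjusted p = 0.128 for S100a9 and 0.175 for S100a8). Cxcr2, Retnlg and Mmp8 of the same list lay under that level and were not tested. Of 9 markers of M cells and follicle epithelium, Marcksl1, Tnfaip2 and Tnfrsf11a rose in KO and 0 passed in WT. The other entries of that list did not pass in KO, and its median log2 change there was 0.08, against -0.10 over all genes. Of 5 tested germinal centre markers Fas rose in KO and S1pr2 fell in KO and in WT, and the list median in KO was -1.38. In KO, of 10 tested stroma markers Vcam1 rose, and of 7 plasma cell markers Prdm1 rose. Of 10 dendritic cell markers Fscn1 and Zbtb46 fell, and of 5 small intestine markers Fabp2 fell. Median log2 changes in KO were 0.09 for stroma, -0.42 for plasma cell, -1.28 for dendritic cell and -2.81 for small intestine markers. That of plasma cells thus had the other sign than Prdm1. T cell, endothelial, fibroblast, epithelial, muscle, high endothelial venule, fat and macrophage markers had 0 calls in KO and in WT. Averaged over genotypes, where Ccl28 and Ccl20 passed, 2 of 10 epithelial markers rose, beside 13.0% of all genes. They were Cdh1, by a log2 change of 0.70 ± 0.18 (adjusted p = 0.0156), and Epcam, by 0.48 ± 0.15 (adjusted p = 0.0305). Of 8 fibroblast markers Pdgfrb fell by -0.83 ± 0.27, and of 8 blood endothelial markers Plvap by -1.01 ± 0.31, beside 14.6% of all genes lower. The averaged median log2 changes were 0.24 for epithelial, -0.58 for fibroblast and 0.11 for blood endothelial markers. The part of epithelial content in the changes of Ccl28 and Ccl20 was not tested. Several of these calls in KO lay near the threshold, with adjusted p = 0.0498 for Vcam1 and Tnfrsf11a, 0.0492 for S100a8 and 0.0490 for Tnfaip2, and these 4 were lost without 9 to 11 of the 12 libraries in turn. Prdm1 in KO and S1pr2 in WT were lost without 9 each, and Ly6g and Fabp2 in KO without 7 each. The averaged calls of Tnf, Vcam1, Hsd3b7, S1pr2 and Tnfrsf11a were kept without each library.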

How the data were processed

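Groups came from the genotype and treatment labels. The members and gene lists were chosen with earlier results of these data known. The deposited log2 values are the authors' log2 normalized counts, per the labels' descriptions. Their steps have the form log2(count divided by a library factor, plus 1), with 100% of the low nonzero values whole within 0.01. At high read numbers the deposited decimals do not resolve 1 read, so those values were not checked and were rounded. A second deposited table by the authors holds log2(FPKM + 1), used for levels per length and as an alternative. The submitters' processing notes list STAR, GRCm38 and mm10. Counter, strand setting, annotation and versions: not given in the sources used here. A total of 4 columns of a further table match no sample and were not used. Of the members, Ccl25, Cxcr5, Ccl19 and Ccl21a overlap a gene on the other strand, so their reads are uncertain if strand was not used.

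Of 40050 genes, the 23263 averaging at least 10 normalized counts were fitted on log2(normalized count + 1) in limma 3.58.1 (R 4.3.3; lmFit, contrasts.fit, eBayes with trend), with 4 group means over 12 libraries, 8 residual and 3.86 prior degrees of freedom. P-values were adjusted by Benjamini-Hochberg over all genes tested in each of 7 comparisons, and a gene passed under 0.05. On this scale the added 1 shrinks changes between low counts, while libraries at 0 can enlarge a mean log2 change. Ccr6 in KO, with 2 DSS libraries at 0, changed by -3.19 at mean normalized counts of 14.0 on DSS and 35.4 on water. Errors of changes are SE. Exact permutation tests are two-sided, and within genotypes for averaged changes. The code was tested on simulated data. Named beyond the members were Glul, Lyz2, further receptors, entries of fixed lists that passed in KO or in WT (up to 4 a list) and the 5 genes most like Cxcl13 and Ccl20. List entries named for the averaged comparison alone were chosen after their values were seen. Coordinates are from GENCODE vM21 and promoters from RefSeq (GRCm38.p6). Alternatives changed the filter, pseudocount, scaling, table, weights, model and libraries. The values of 1 list entry are not reported here.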

Additional observations from a re-analysis of the deposited data

How the results depend on the processing

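No gene of the set passed in a comparison of KO with WT, or in the interaction, under any alternative. Averaged over genotypes the count of passing genes stood at 2 with no filter, the FPKM table, voom and the replicate block, 3 with a minimum mean of 50, a pseudocount of 5 or upper-quartile scaling (Cxcl13 added), 4 with sample weights (Cxcl13 and Ccl25 added), and 1 to 3 without single libraries. In KO it was 0, 1 with sample weights and 0 to 1 without single libraries. In WT it was 0, 2 with sample weights, 1 with only the 2 groups and 0 to 1 without single libraries. Without Spib and Pou2af1 among the B cell markers, a change made after seeing the data, 0 genes were apart on the ratio. Signs turned only where no call was made, and the cause was not tested. With sample weights the log2 change in KO was 0.11 for Ccl19, 0.35 for Ccl21a and 0.32 for Ccr7. In WT it was -0.084 for Ccr7 and 0.021 for Cxcr5, averaged 0.12 for Ccr7, and for KO against WT on water -0.014 for Ccl21a. In WT, Ccl21a was 0.024 with voom, and with FPKM Ccr6 was -0.0023 and Cxcr5 0.029. Without single libraries the ranges in KO were -2.74 to 0.050 for Ccl19, -0.77 to 0.47 for Ccl21a and -2.61 to 0.40 for Ccr7. In WT they were -1.46 to 0.73 for Ccl21a, -0.69 to 0.85 for Ccr6, -1.12 to 1.33 for Ccr7 and -0.86 to 1.02 for Cxcr5. Averaged, they were -0.26 to 0.26 for Cxcl12, -0.77 to 0.62 for Ccl19, -0.88 to 0.22 for Ccl21a and -1.26 to 0.24 for Ccr7.

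Replicate numbers showed no pairing of the libraries: of 15 same-numbered pairs, 3 correlated above 0.1 in their deviations, and 2 of 12 libraries were closest to their own number. The median correlation was 0.0025 for these pairs and -0.0037 for 39 differently numbered ones. With 3 libraries a group, such a check cannot exclude pairing. With the replicate block 2 genes of the set passed averaged and 0 in KO or WT, and the log2 change of Ccr7 in WT was -0.85. WT_DSS 4 is alone in its block and so drops out of that fit. Low read numbers limit Ccl19, Ccr6, Ccr7 and Cxcr5, where a library without a read can still hold up to 3.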
